A study of Bos taurus with 8 samples.

Results

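*PTPRC*, *ITGB2*, *CD48*, *CD52*, *CD53*, *LAPTM5*, *CORO1A*, *LCP1*, *RAC2* and *ARHGDIB* are genes of the membrane and cytoskeleton that are used by nearly all white blood cells. They were taken by symbol from the table of granulosa cell RNA, in which all 10 were found among 26804 listed genes. The rule takes them by name and sets no threshold on a value, though the list was drawn up with earlier results of these data known. Granulosa cells line the ovarian follicle and were collected by ovum pick-up (OPU), the aspiration of follicles with a needle under ultrasound. By the paper's account, the cows were non-pregnant, non-lactating, multiparous crossbred *Bos taurus* beef cows, housed together outdoors, though the labels differ on breed. The same animals were sampled in winter (February in the paper, where the labels differ) and again in summer (August). Both samplings followed the same hormonal program of a progesterone device, a GnRH analog and FSH. The ages and genotypes of the cows are not given in the sources used here. The cell pellet came from the aqueous upper layer of the fluid of each cow, and the methods name no sorting of the pellet and no lysis of blood cells. Each library holds pooled RNA of 2 cows. Summer is represented by 4 libraries, numbered 1, 2, 3 and 5, and winter by another 4, numbered 1, 3, 4 and 5. The sources used here do not say which cows went into which pool. There was 1 OPU session per season, so that season and session cannot be told apart.

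Leukocytes share a set of proteins that other cells lack or hold at low levels. At their surface, the phosphatase CD45, encoded by *PTPRC*, sets the activity of Src-family kinases, and the beta-2 integrins, whose common beta chain is encoded by *ITGB2*, bind the vessel wall and other cells. Beneath the membrane, coronin 1A, L-plastin and the GTPase RAC2 arrange the actin filaments with which leukocytes crawl and engulf. In the ovary, leukocytes reside mainly in the stroma and the theca around the follicle, outside the basal lamina that separates granulosa cells from blood vessels, and they become more numerous near ovulation. An aspirated follicle can also bring along blood. In a bulk library, fewer cells of a type and less RNA per cell cannot be told apart.

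Values are in TPM, the reads of a gene per transcript length relative to the library total. Mitochondrial genes took 50.7 to 87.7% of TPM in the summer libraries and 85.1 to 92.0% in the winter libraries (71.1 ± 15.7% and 88.8 ± 2.85%, SD, n = 4 each). The difference of -17.6 points (summer minus winter) gave p = 0.0571 in an exact two-sided permutation test of the 70 possible assignments. Seasons were therefore compared on a scaled TPM, whose total omits the 13 mitochondrial genes that encode proteins and to which a factor per library was applied, and the deposited TPM is given beside it. Granulosa RNA was abundant in both seasons: the inhibin alpha chain *INHA* averaged 29371 scaled TPM in summer and 10544 in winter. All 16 granulosa markers listed passed the filter on low values, but so did the 10 leukocyte genes, so that passing it does not show identity. In limma, 1671 of 13046 genes tested were called at a 2-fold change and an adjusted p of at most 0.05, of which 801 were higher and 870 lower in summer. Without the factor per library, the split was 1570 higher and 651 lower. Within a season the replicates are separate pools of cows, but the same animals were sampled in both seasons. The fit for season alone takes the libraries as independent. The paper gives an average number of clean reads over the granulosa libraries but not the number for each, so that the depth of each is unknown.

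All 10 leukocyte genes were lower in summer than in winter. Each was called, beside a background of 6.67% of genes tested that were called lower and 6.14% that were called higher. In each of the 10, every summer library was also below every winter library, which held for 11.3% of genes tested. The summed level of the 10 genes was 33.0, 56.7, 156 and 115 scaled TPM in the summer libraries, listed here and below by rising replicate number (1, 2, 3, 5), and 423, 914, 500.2 and 723 in the winter libraries (1, 3, 4, 5). The lowest winter library thus held more than the highest summer library, and the ratio of the means was 7.11. The median log2 fold change (summer minus winter) was -2.52 over the 10 genes and 0.03 over all genes tested. All 10 passed the filter on low values in both seasons, so that none entered the test through winter alone.

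**Figure D1:**
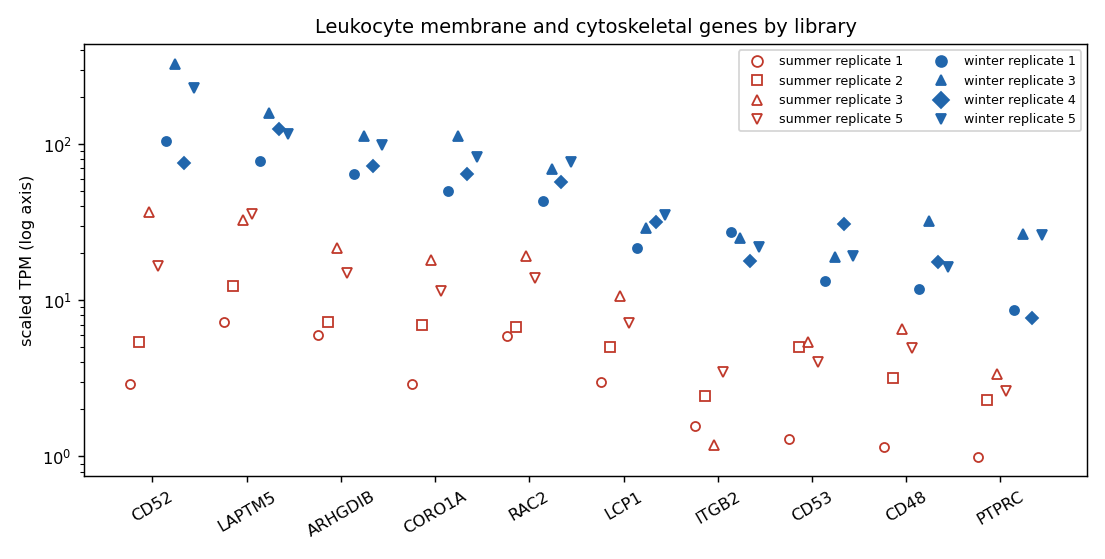
Scaled TPM of the 10 leukocyte genes on a log axis, with 1 point per library (open red, summer; filled blue, winter; the symbol gives the replicate number). In every gene the 4 summer points sit below the 4 winter points, and *CD52* spreads most, from 2.93 to 328.

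Among the surface proteins, *PTPRC* encodes the phosphatase CD45, by which leukocytes are commonly recognised. Its scaled TPM was 0.996, 2.28, 3.38 and 2.64 in summer and 8.70, 26.6, 7.74 and 26.2 in winter. Winter replicates 3 and 5 were about alike and well above the other winter libraries, which still exceeded every summer library. The log2 fold change was -2.31 (SE 0.44) with a limma adjusted p of 0.0059.

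*ITGB2* encodes CD18, the beta chain shared by the integrins LFA-1 and Mac-1. It was at 1.56, 2.44, 1.18 and 3.48 scaled TPM in summer and at 27.6, 24.9, 17.9 and 22.1 in winter. Its winter libraries were close together (23.1 ± 4.16, SD, n = 4), and no summer library came near them. This gene had the smallest adjusted p of the 10 (limma adjusted p = 0.00062), with a log2 fold change of -2.97 (SE 0.28).

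*CD52*, a short glycoprotein anchored to the membrane by a lipid and abundant on lymphocytes, differed most between the seasons. It was at 2.93, 5.42, 36.8 and 16.6 scaled TPM in summer and at 104, 328, 76.0 and 228 in winter. The libraries were uneven within each season, and summer replicate 3 came closest to winter, though below winter replicate 4. The mean was 11.9 times higher in winter, and the log2 fold change was -3.79 (SE 0.67, limma adjusted p = 0.0043).

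*CD53*, a tetraspanin of leukocytes, was at 1.3, 4.99, 5.38 and 4.0 scaled TPM in summer and at 13.4, 19.0, 30.7 and 19.3 in winter. It alone of the 10 peaked in winter replicate 4. *CD48*, a ligand of the receptors CD2 and 2B4 on T and natural killer cells, was at 1.15, 3.18, 6.56 and 4.98 in summer and at 11.8, 32.3, 17.5 and 16.4 in winter. Both genes had no overlap between the seasons, with log2 fold changes of -2.18 (SE 0.36, limma adjusted p = 0.0034) for *CD53* and -2.10 (SE 0.41, limma adjusted p = 0.0069) for *CD48*.

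*LAPTM5* encodes a lysosomal membrane protein that lowers antigen receptor levels in lymphocytes. It was the most abundant of the 10 in summer, at 7.31, 12.4, 32.7 and 35.6 scaled TPM, and rose to 77.6, 159, 125 and 117 in winter. Summer replicates 3 and 5 stood above summer replicates 1 and 2, and all were below winter replicate 1. The log2 fold change was -2.60 (SE 0.44, limma adjusted p = 0.0036).

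Among the regulators of actin, *CORO1A* encodes coronin 1A, which binds actin filaments and the Arp2/3 complex. It was at 2.90, 6.96, 18.3 and 11.5 scaled TPM in summer and at 49.8, 113, 64.7 and 82.7 in winter. The lowest winter library exceeded the highest summer library more than 2-fold. Its log2 fold change of -3.02 (SE 0.44, limma adjusted p = 0.0018) was the second most negative of the 10.

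*LCP1* encodes L-plastin, which bundles actin filaments. It was at 3.01, 5.04, 10.6 and 7.12 scaled TPM in summer and at 21.6, 29.0, 31.5 and 35.1 in winter. The winter libraries were even (29.3 ± 5.71, SD, n = 4), and the log2 fold change was -2.11 (SE 0.32, limma adjusted p = 0.0021).

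*RAC2* and *ARHGDIB* act together in the control of the cytoskeleton. RAC2 is the Rac GTPase of blood cells, which also serves the oxidase of phagocytes, and *ARHGDIB* encodes the inhibitor that keeps such GTPases in the cytosol. *RAC2* was at 5.92, 6.72, 19.1 and 13.9 scaled TPM in summer and at 43.2, 69.8, 57.0 and 76.8 in winter. *ARHGDIB* was at 5.96, 7.29, 21.5 and 15 in summer and at 64.6, 112, 72.3 and 99.3 in winter. The pair followed nearly the same course over the summer libraries, lowest in replicate 1 and highest in replicate 3. The log2 fold change was -2.45 (SE 0.34, limma adjusted p = 0.0015) for *RAC2* and -2.84 (SE 0.35, limma adjusted p = 0.0011) for *ARHGDIB*. Fold changes are on the scale log2(scaled TPM + 1), which understates the change of the lowest genes, such as *PTPRC* and *ITGB2* in summer.

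The size of the season difference depended on the scale. On the deposited TPM all 10 genes had lower means in summer, with a median log2 fold change of -0.93, where the median of all genes tested was 0.89. Relative to that shift the members' median was -1.82, and on scaled TPM it was -2.56. The added 1 weighs more here, as deposited summer means were 0.608 (*PTPRC*) to 5.42 (*LAPTM5*). Mean deposited TPM was 1.82 (*LCP1*) to 6.29 (*CD52*) times higher in winter. How much of the difference between the scales comes from the added 1 was not tested. *CORO1A*, *ARHGDIB* and *CD52* were called, that is 3 of 10 beside 0.621% of genes tested called lower on this scale. *ITGB2* passed the adjusted p (limma adjusted p = 0.0141) with a log2 fold change of -0.999 on log2(TPM + 1), just short of a call. Without the added 1, its mean deposited TPM was 3.48 times higher in winter. *PTPRC* (limma adjusted p = 0.0521), *LAPTM5* (0.0523), *RAC2* (0.0811), *CD53* (0.138), *CD48* (0.149) and *LCP1* (0.210) did not pass. For 4 of 10 genes, the called ones and *ITGB2*, every summer library was below every winter library, beside 1.2% of genes tested.

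*LCP1* shows the dependence on scale most plainly. Its deposited TPM was 1.62, 1.62, 1.55 and 1.79 in summer and 1.62, 3.87, 3.15 and 3.38 in winter. Winter replicate 1, in which mitochondrial genes took 92.0% of TPM, was thus level with summer, while the other winter libraries were higher. *CD52* kept the most negative log2 fold change on the deposited TPM as well (-2.09, SE 0.50, limma adjusted p = 0.0011), from 1.58, 1.74, 5.40 and 4.18 in summer and 7.82, 43.7, 7.58 and 22 in winter.

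**Figure D2:**
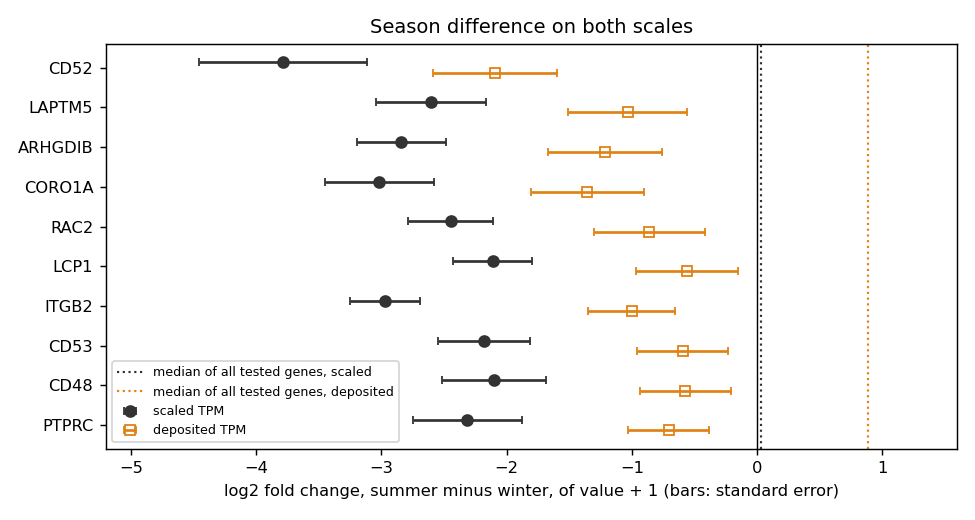
Log2 fold change (summer minus winter) of the 10 leukocyte genes on scaled and on deposited TPM, with bars of 1 SE from limma and dotted lines at the median of all genes tested (0.03 and 0.89). All points lie below 0 on both scales, with medians of -2.52 and -0.93.

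The mitochondrial share of the libraries moved with these genes within summer. The summed level rose in the order of replicates 1, 2, 5 and 3, and so did the mitochondrial share (50.7, 68.4, 77.7 and 87.7%). In winter the order differed: replicate 3 had the lowest share (85.1%) and the highest sum, and replicate 1 the highest share (92.0%) and the lowest sum. With the mitochondrial share as a covariate, all 10 genes were lower in summer with an unadjusted limma p under 0.05, with log2 fold changes from -2.95 for *ITGB2* to -1.36 for *CD48*. In that fit 5 of 10 were called, namely *CORO1A*, *ITGB2*, *ARHGDIB*, *LCP1* and *RAC2*, and 268 genes in all. How much of the season difference moves with the share cannot be told apart with 4 libraries per season.

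A measure that no scaling of libraries can change is the share of a leukocyte gene in the TPM of itself and a related gene that many other cell types use. For 9 of the 10 genes such a partner was listed, and *CD52* had none. All 9 shares were lower in every summer library than in every winter library. Each gave p = 0.0286 in a two-sided exact permutation test over 70 assignments, which is the smallest p that 4 against 4 libraries allow. These p-values are not adjusted over the 9 pairs. The test takes the libraries as independent, although the same animals were sampled in both seasons and the cows of each pool are not known. Genes of a pair differ in transcript length, which TPM takes into account, so that the levels can be set side by side.

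For the plastins the more abundant gene of the pair differed between the seasons. *LCP1* made up 8.80, 15.6, 24.5 and 16.7% of the summed TPM of itself and *PLS3*, the plastin of non-blood cells, in summer, and 56.4, 66.4, 76.8 and 69.9% in winter. *PLS3* was thus the more abundant plastin in all 4 summer libraries and *LCP1* in all 4 winter libraries. The same crossing was seen for the coronins and for the CD2 family. *CORO1A* took 30.8 ± 18.2% against the more broadly used *CORO1C* in summer and 83.5 ± 3.99% in winter. *CD48* took 26.8 ± 16.7% against *CD58*, a related adhesion ligand of many tissues, in summer and 72.1 ± 8.47% in winter (SD, n = 4 in each case).

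In the other pairs the widely used gene had the higher winter mean. *PTPRC* took 5.75 ± 2.61% against the receptor phosphatase *PTPRA* in summer and 44.0 ± 14.5% in winter, when it exceeded *PTPRA* in replicates 3 and 5 (50.5 and 60.3%). *LAPTM5* took 9.42 ± 7.23% against *LAPTM4A* in summer and 44.1 ± 10.1% in winter. *ARHGDIB* took 5.55 ± 2.85% against *ARHGDIA* in summer and 27.6 ± 6.80% in winter. For the Rac GTPases the share of *RAC2* against *RAC1* was 6.05 ± 2.70% and 23.4 ± 4.56%, which means that RAC1 transcripts prevailed in every library. The lowest shares were those of *ITGB2* against the integrin beta-1 chain *ITGB1* (1.19 ± 0.450% and 19.8 ± 3.33%) and of *CD53* against the tetraspanin *CD63* (0.583 ± 0.574% and 4.19 ± 1.21%). In summer, an *ITGB2* transcript was therefore rare beside *ITGB1*, and no summer library exceeded 1.66%.

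**Figure D3:**
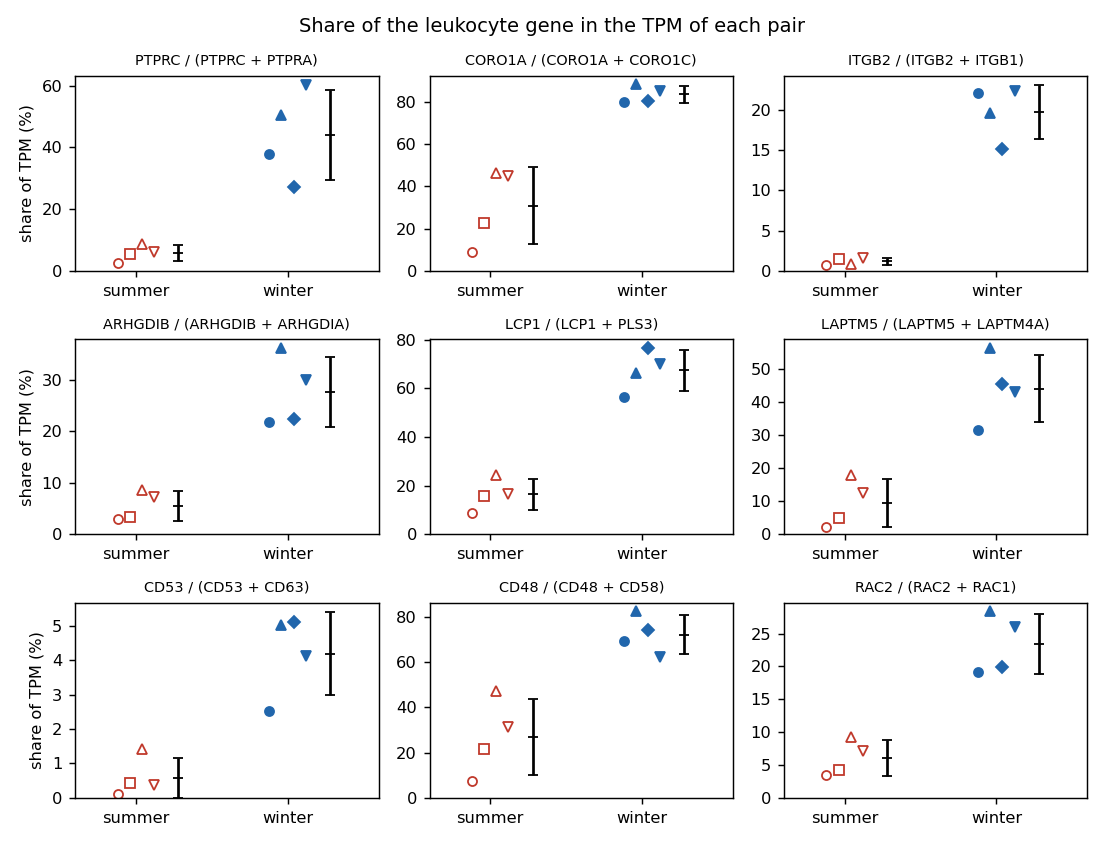
Share of each leukocyte gene in the TPM of itself and its related gene (%), with 1 point per library (open red, summer; filled blue, winter) and black bars of mean ± SD (n = 4 per season). In all 9 pairs the highest summer share is below the lowest winter share.

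Changes of the related genes also enter these shares. On scaled TPM *PLS3* was called higher in summer (log2 fold change 1.14, SE 0.20, limma adjusted p = 0.0043). *PTPRA* (0.96, limma adjusted p = 0.0076) and *ITGB1* (0.89, 0.0071) passed the adjusted p below 2-fold. *CD63* (0.85, 0.0899), *LAPTM4A* (0.64, 0.0519), *CD58* (0.59, 0.143) and *CORO1C* (0.54, 0.117) did not pass it. *RAC1* was at -0.23 (0.239) and *ARHGDIA* at -0.14 (0.437), and both turned positive without the factor per library (0.058 and 0.15) and on the deposited TPM (1.24 and 1.34). *CD63*, the partner of *CD53*, was low in summer replicate 3 (373 scaled TPM, against 1065 to 1184 in the other summer libraries).

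The order of the 10 genes within a season was led by *CD52*, *LAPTM5*, *ARHGDIB*, *CORO1A* and *RAC2* in winter, at means of 184, 119, 87.1, 77.6 and 61.7 scaled TPM. *LCP1* (29.3), *ITGB2* (23.1), *CD53* (20.6), *CD48* (19.5) and *PTPRC* (17.3) followed. Of the neighbours in that order, *RAC2* and *LCP1* alone had ranges that did not overlap. The genes thus fell into a more abundant and a less abundant set of 5 each. In summer the order was *LAPTM5*, *CD52*, *ARHGDIB*, *RAC2*, *CORO1A*, *LCP1*, *CD48*, *CD53*, *PTPRC* and *ITGB2*, from 22 to 2.16, with overlap between all neighbours. Set among all genes tested, the members lay between the percentiles 63.6 (*PTPRC*) and 94.5 (*CD52*) in winter and between 21.1 (*ITGB2*) and 67.6 (*LAPTM5*) in summer. Most therefore moved from the upper part of the range of levels to its middle or below.

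The makeup of the leukocyte signal was also compared, as the share of each gene in the sum of all 10, which no scaling changes. *CD52* made up 8.87, 9.55, 23.7 and 14.5% in summer and 24.7, 35.9, 15.2 and 31.5% in winter, so that the seasons overlapped through summer replicate 3 and winter replicate 4. *RAC2* made up 11.8 to 17.9% in summer and 7.63 to 11.4% in winter, with no overlap. *CORO1A* and *ARHGDIB* held nearly the same share in both seasons (10.7 ± 1.59% and 12.1 ± 0.654% for *CORO1A*, 14.4 ± 2.44% and 13.9 ± 1.26% for *ARHGDIB*, SD, n = 4). *LAPTM5* made up 21 to 31.0% in summer and 16.2 to 25.0% in winter. These shares are a description and were not tested.

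**Figure D4:**
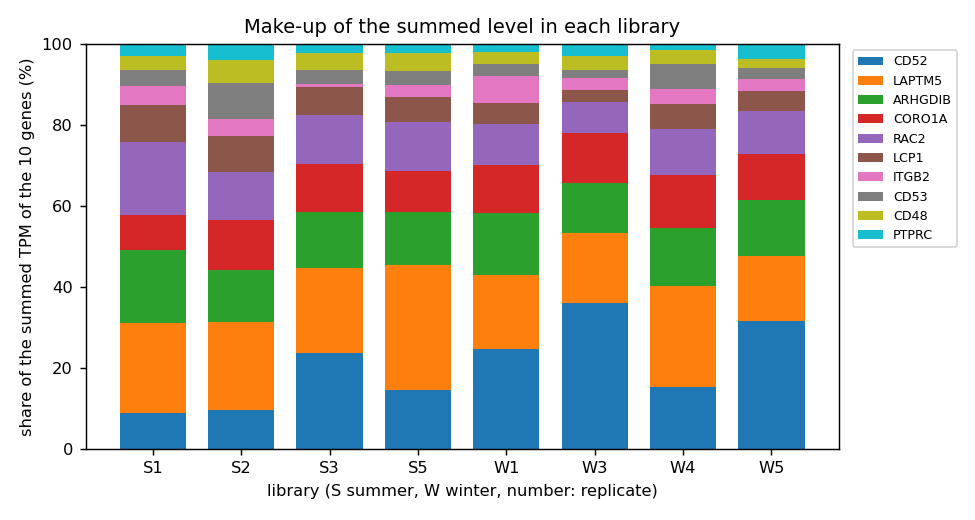
Share of each of the 10 leukocyte genes in their summed TPM (%), as stacked bars with 1 bar per library. *CD52* makes up 15.2 to 35.9% in winter and 8.87 to 23.7% in summer, and *CORO1A* holds 8.79 to 12.9% in all 8 libraries.

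Within a season the genes moved together with few exceptions. Of the 10, 8 were highest in summer replicate 3 and 9 were lowest in summer replicate 1. In winter 6 were highest in replicate 3 and 7 were lowest in replicate 1. After the season means were taken away, the deviation of each gene was correlated with the mean deviation of the other 9 over the 8 libraries, which share scaling and depth. Pearson's r was 0.99 for *CORO1A*, between 0.90 and 0.96 for *ARHGDIB*, *CD48*, *RAC2*, *LAPTM5*, *CD52* and *LCP1*, 0.73 for *PTPRC* and 0.57 for *CD53*. *ITGB2* stood apart at -0.01, lowest in summer replicate 3 and highest in winter replicate 1, where most of the others were at the opposite end. Among 8600 other genes of sufficient level, those with deviations most like the mean of the members included *ETNK2* (r = 0.96), *GOLGB1* (0.95), *TBCCD1* (0.95) and *NCOA6* (0.94), none of which was called between seasons.

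Markers of leukocyte classes varied among the winter libraries. The summed level of 24 listed T, B and natural killer cell genes was 11.0, 21.3, 41.9 and 44.8 scaled TPM in summer and 142, 278, 97.5 and 267 in winter. *CD3E*, a chain of the T cell receptor complex, was at 15.6, 28.9 and 25.9 in winter replicates 1, 3 and 5 and at 2.96 in winter replicate 4, within the summer range of 1.07 to 4.21. *PTPRC* (7.74), *CD52* (76.0) and *ITGB2* (17.9) also had their lowest winter levels in replicate 4, but these levels were above every summer library. For *PTPRC*, winter replicate 1 was nearly as low (8.70). The B cell gene *MS4A1* was at 0.513 to 4.18 in summer and 2.2 to 10.6 in winter and did not pass (log2 fold change -1.35, limma adjusted p = 0.0739).

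The myeloid markers had their highest sum in winter replicate 4, most of it from neutrophil genes. Over 22 listed genes their sum was 50.3, 106, 184 and 171 scaled TPM in summer and 375, 209, 2488 and 412 in winter, and the neutrophil genes *CXCR2*, *CSF3R*, *S100A8*, *S100A9* and *S100A12* alone reached 2112 in winter replicate 4. *CD53* was highest in that library. *S100A8*, a calcium-binding protein of neutrophils and monocytes, was at 1.47 to 11.0 in summer and at 28.0, 13.2, 278 and 26.0 in winter. Not all genes of the list peaked in that library. *CSF1R*, the receptor for a macrophage growth factor, was at 0.212 to 0.884 in summer. In winter it was at 3.71, 0.849, 2.80 and 2.22, highest in replicate 1. *CD14*, a monocyte receptor, had a log2 fold change of -0.17 (limma adjusted p = 0.874), which turned positive without the factor per library (0.055) and on the deposited TPM (0.51).

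Hemoglobin RNA moved with the leukocyte genes in winter. *HBA* and *HBB* together were at 37.8, 58.1, 94.2 and 35.9 scaled TPM in summer and at 562, 42361, 1635 and 8406 in winter. The winter libraries had the same order for hemoglobin and for the sum of the 10 genes, replicate 3 above 5, 4 and 1. Of 10 listed red blood cell genes 4 were tested, and all were called lower in summer, beside 6.67% of genes tested. The part of blood in the season difference was not tested. Without winter replicate 3, without winter replicate 4 or without both, all 10 leukocyte genes were called lower in summer, with a median log2 fold change of -2.38 without both. Leaving out both was chosen after seeing the data. *HBB* still had a log2 fold change of -5.31 without both, so that leaving out these libraries is no test of the part of blood.

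**Figure D5:**
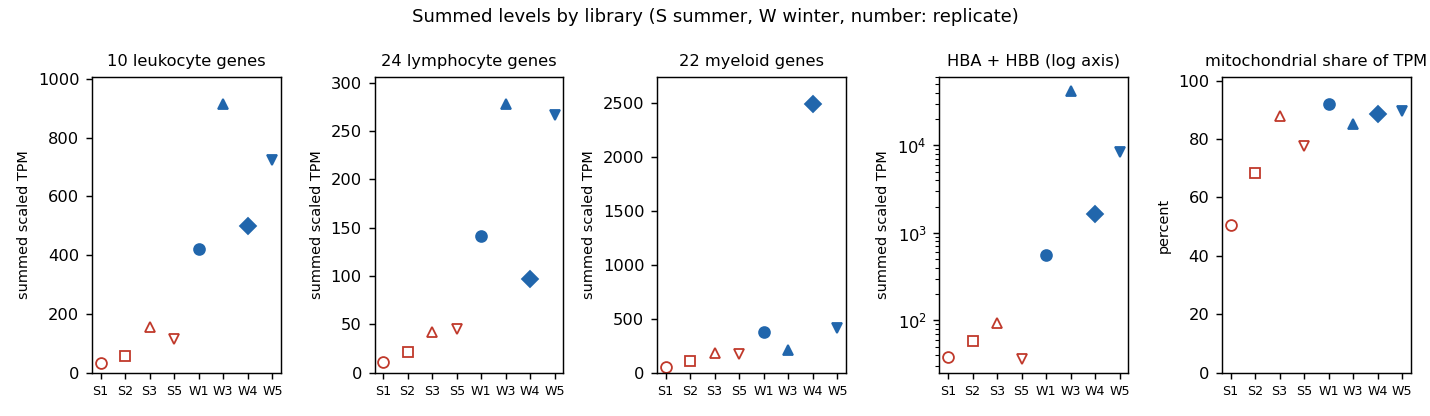
Summed scaled TPM per library (open red, summer; filled blue, winter) of the 10 leukocyte genes, the lymphocyte and myeloid genes and, on a log axis, the hemoglobin genes, with the mitochondrial share of TPM (%) in the last panel. The 10 genes are at 33.0 to 156 in summer and 423 to 914 in winter, with the myeloid peak in winter replicate 4 and the hemoglobin peak in winter replicate 3.

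Most other genes listed as used by leukocytes in general moved the same way. All 32 listed passed the filter on low values in winter and 30 in summer, so that some entered the test through winter alone. Of the 32, 26 were called lower in summer and 1 higher, beside 6.67% and 6.14% of genes tested. The median log2 fold change of the 32 was -1.80. The other 5 were not called: *VAV1* was at -1.06 (limma adjusted p = 0.0571), *DOCK2* at -0.98 (0.0833), *CD69* at -1.41 (0.156), *PLEK* at 0.17 (0.804) and *ITGA4* at 0.03 (0.966). *GMFG*, which unmakes actin branches, was at 4.87 to 15.8 scaled TPM in summer and 57.7 to 93.1 in winter (log2 fold change -2.97, limma adjusted p = 0.00076). *INPP5D*, a lipid phosphatase of blood cells (-1.85, 0.0016), *LSP1*, an actin-binding protein of leukocytes (-2.79, 0.0017), and *PTPN6*, a phosphatase of inhibitory receptors (-1.91, 0.0025), also fell. The gene called higher was *SRGN*, which encodes the granule proteoglycan serglycin. It was at 4935 to 20029 in summer and 2155 to 2601 in winter (2.46, limma adjusted p = 0.0025), levels far above those of any of the 10 genes. On the deposited TPM 2 of the 32 were called lower, *GMFG* and *LSP1*, and 2 higher, *SRGN* (3.97, limma adjusted p = 7.66e-07) and *PLEK* (1.55, 0.0128). With the mitochondrial share as a covariate 3 were called lower.

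Of 19 lymphocyte genes tested, 16 passed the filter on low values in both seasons and the others in a single season. Of the 19, 11 were called lower and none higher (19 and 0 with an unadjusted limma p under 0.05), beside 6.67% of genes tested called lower. Their median log2 fold change was -1.75, and *NKG7*, a granule protein of cytotoxic cells (-2.35, limma adjusted p = 0.00098), and *CD247*, the zeta chain of the T cell receptor (-2.36, 0.0017), had the smallest adjusted p. On the deposited TPM none was called (10 lower with an unadjusted limma p under 0.05). Of 21 myeloid genes tested, 16 passed that filter in both seasons and the others in a single season. Of the 21, 8 were called lower and none higher (14 and 0 with an unadjusted limma p under 0.05), beside the same 6.67%. The median was -1.49. *C1QB*, a complement chain made by macrophages (-2.19, 0.0066), and *TYROBP*, a signaling adaptor (-2.58, 0.0096), were among them. This count fell to 3 without summer replicate 1 or without summer replicate 2, to 4 without winter replicate 5 and to 5 without winter replicate 1.

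The partners of the 10 proteins were not lowered as a class. Their calls are set beside 6.67% of genes tested that were called lower. The Arp2/3 complex, with which coronin works, is found in nearly all cells, and of its 9 subunits tested 1 was called lower in summer, *ARPC1B* (-1.65, limma adjusted p = 0.0034), with a median of -0.23. *ARPC1B* is the isoform most abundant in blood cells. Of the alpha chains that pair with CD18, *ITGAL* of LFA-1 was tested and was called lower, at 0.331 to 0.771 scaled TPM in summer and 2.59 to 11.9 in winter (-2.25, 0.0040). Of 5 subunits of the phagocyte NADPH oxidase, which RAC2 serves, *CYBA* was called lower (-1.35, 0.0122), though at 0.076 on the deposited TPM. *CYBB*, which encodes its catalytic chain, was at 4.13 ± 1.57 in summer and 2.53 ± 1.08 in winter (SD, n = 4) and did not pass (0.55, limma adjusted p = 0.269).

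The other classes of cells listed moved in part. Their counts of calls stand beside 6.67% of genes tested called lower and 6.14% called higher. Of 16 granulosa markers tested 8 were called higher in summer and none lower (11 and 1 with an unadjusted limma p under 0.05), among the higher the FSH receptor *FSHR* (138 ± 43.2 and 55.5 ± 8.70 scaled TPM, log2 fold change 1.24, limma adjusted p = 0.0070) and *INHA* (1.38, 0.0133). The aromatase gene *CYP19A1* (0.69, 0.0898) and *FOXL2* (-0.75, 0.0992, and 0.69 on the deposited TPM) did not pass. On the deposited TPM 14 of the 16 granulosa markers were called higher, beside 5529 of 13046 genes tested. None of 8 endothelial genes tested was called (1 lower and none higher with an unadjusted limma p under 0.05). Of 10 fibroblast genes tested 4 were called lower and 1 higher, with a median log2 fold change of -0.59, and of 9 epithelial genes 4 lower and 1 higher, with a median of -1.13. Several of those called lower fell about as far as the leukocyte genes, whose median was -2.52. The collagen chains *COL3A1* (-3.06, limma adjusted p = 0.0011) and *COL1A2* (-2.45, 0.0033) and the matrix proteoglycan *DCN* (-2.36, 0.0040) did so. So did *UPK3B* (-3.22, 0.0013) and *MSLN* (-2.27, 0.0030), which mesothelium expresses, and the keratin *KRT19* (-2.68, 0.0015). In each of these 6 genes, which were named for their small adjusted p, every summer library was below every winter library. This held for 11.3% of genes tested. The part of these other cells in the season difference of the leukocyte genes was not tested.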

How the data were processed

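Polyadenylated RNA of 8 pools of granulosa cells was sequenced, 4 per season. The deposited values are TPM made by the authors. Per the paper's methods, reads were mapped and normalized by TMM in CLC Genomics Workbench, while the submitters' processing notes name bcl2fastq, Bowtie2 2.2.2, DESeq2 and the build ARS-UCD1.2. Each library sums to 1000000 TPM, which leaves no scaling factor in the values. The paper gives reads as an average over libraries and not for each library. The paper and the labels also differ on breed, RNA kit and winter month.

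For scaled TPM, 13 mitochondrial genes were left out of the total, and an unweighted TMM factor (30% of M and 5% of A trimmed) was applied. A gene was tested if its zFPKM exceeded -3 in each of the 4 libraries of at least 1 season. The test was limma 3.58.1 (R 4.3.3; lmFit, eBayes with trend) for season alone, on log2(scaled TPM + 1), and p-values were adjusted after Benjamini and Hochberg over 13046 genes. A call required 2-fold, an adjusted p up to 0.05, and expression by the zFPKM limit throughout the season with the higher level. limma took the place of a count model because the values are TPM.

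Named genes are the 10 members, 9 related genes, up to 4 called genes of smallest adjusted p of each list, a fixed set of markers, and the 5 genes of at least 5 scaled TPM most like the members within seasons, of which 1 is not reported here. *CYBB*, *CXCR2*, *CSF3R*, *S100A9*, *S100A12*, *VAV1*, *DOCK2*, *CD69*, *PLEK*, *ITGA4* and *EPCAM* were named outside this rule, after their values were seen. The members and lists were chosen with earlier results of these data known. Symbols were matched in RefSeq, and coordinates were not used here. Values of related genes that share reads, and of genes overlapping on opposite strands, cannot be separated from TPM. Alternatives covered scaling, pseudocount, filter, variance model, library weights, replicate number, mitochondrial share and single libraries. Figures were drawn with matplotlib 3.10.9.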

Additional observations from a re-analysis of the deposited data

Results flagged for a closer look

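Within the 4 libraries of a season, 5 of 142 groups of values had a library far from the others by Dixon's criterion, or 3.52%, where chance gives about 1 in 20. *CD63*, the partner of *CD53* in the shares, was at 373 scaled TPM in summer replicate 3 and at 1065 to 1184 in the other summer libraries. *MS4A1* was at 4.18 in summer replicate 3, the summer library with the highest level of 8 of the 10 leukocyte genes, and at 0.513 to 0.666 in the others. Winter replicate 4 stood apart for *TYROBP* (30.5, against 2.92 to 6.16), *S100A8* (278, against 13.2 to 28.0) and *FCER1G* (140, against 25.6 to 43.2). None of the 10 leukocyte genes had such a library in either season.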

How the results depend on the processing

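The 10 leukocyte genes were called lower in summer under 18 of 20 alternatives, with each library left out in turn among them. The exceptions were the deposited TPM, with 3 called, and the mitochondrial share as a covariate, with 5. Over all 20 alternatives each of the 10 log2 fold changes was negative. *CORO1A* and *ARHGDIB* were called under all of them. The cause of the changes was not tested.

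Of all genes, 5610 were called on the deposited TPM (5529 higher, 81 lower), 791 with a pseudocount of 5, 268 with the covariate and 1105 to 1836 with 1 library left out, the lowest without summer replicate 1. Of other pan-leukocyte genes, 2 were called lower on the deposited TPM, 13 with a pseudocount of 5, 3 with the covariate and 18 to 26 with 1 library left out. Leaving out both winter replicates 3 and 4, which was chosen after seeing the data, gave 16. Of lymphocyte genes, 0 were called on the deposited TPM, 17 with library weights, 2 with the covariate and 8 to 16 with 1 library left out. Of myeloid genes, 1 was called on the deposited TPM, 4 with a pseudocount of 5, 4 with no filter on low values, 0 with the covariate (3 with an unadjusted limma p under 0.05) and 3 to 12 with 1 library left out.

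Leaving out 1 library kept the direction of all 9 shares. The difference in points ranged from -43.8 to -32.8 for *PTPRC*, from -4.17 to -3.30 for *CD53* and from -52.0 to -38.8 for *CD48*. For these the exact p rose to 0.0571 without summer replicate 1, 2 or 5 (*PTPRC*), any summer library (*CD53*) or winter replicate 1, 3 or 4 (*CD48*). The other 6 shares stayed at or below 0.05 without any library.

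Signs turned on the deposited TPM for *ARHGDIA* (1.34), *RAC1* (1.24), *CD14* (0.51), *FOXL2* (0.69) and *CYBA* (0.076). Without the TMM factor they turned for *ARHGDIA* (0.15), *RAC1* (0.058) and *CD14* (0.055). *CD14* was also positive with the replicate block (0.12), with the covariate (0.34), without summer replicate 1 (0.14) and without winter replicate 4 (0.41), in a range of -0.66 to 0.41 with 1 library left out.

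Deviations of libraries with the same replicate number correlated at 0.04, 0.16 and 0.11 for numbers 1, 3 and 5, and each summer library correlated best with its own number, as a hint from the data. A fit with the replicate block called 1426 genes, of which 1180 were also called without it. All 10 leukocyte genes were called under the block, with 18 other pan-leukocyte, 16 lymphocyte and 6 myeloid genes, and the shares differed by -51.1 (*CORO1A*) to -3.25 (*CD53*) points. Reads are known only as an average over libraries, from the paper. Counting error in each library at low levels, such as those of *PTPRC* and *ITGB2* in summer, is therefore not given.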
